A study of Mus musculus with 6 samples.

Results

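The genes described here are 9 regulators and executioners of programmed cell death: the caspase inhibitor gene Xiap, the BCL2 family genes Bax, Bak1, Bid, Bcl2l1 and Mcl1, and the caspase genes Casp6, Casp8 and Casp9. They were chosen by name, with earlier results of these data known. Every probe set of the table annotated to 1 of these symbols was taken. This gave 14 probe sets for 7 of the 9 genes, out of 7163 genes named in the table. Bax and Bid matched no probe set annotated to a single symbol and were not analysed here. Probe sets annotated to several symbols were not searched. Of the 14 probe sets, 12 were bright enough to test, with signals averaging at least 100. The sole Casp9 probe set and 1 of 3 for Xiap lay below that minimum.

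Total liver RNA was measured on Affymetrix arrays, with 1 array per sample, in 3 samples labelled Atp7b knockout (KO903, KO904 and KO905) and 3 labelled wild type (WT4, WT5 and WT6). ATP7B pumps copper out of hepatocytes, mutations in it cause Wilson disease, and the series title places the livers at an early stage of copper accumulation. The labels give no sex, age, strain or diet, and name no treatment. Whole liver was used, so that fewer cells of a type and less RNA per cell cannot be told apart.

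Programmed cell death by the mitochondrial route begins when the BCL2 family tips towards its pore-forming members BAX and BAK, cytochrome c leaves the mitochondria, and the apoptosome activates caspase-9. Death receptors instead activate caspase-8, and in hepatocytes its cleavage of BID carries that signal to the mitochondria. Both routes end in effector caspases, and XIAP binds and inhibits several caspases. XIAP is also tied to copper: it takes up copper from the chaperone CCS and acts on COMMD1, a protein linked to copper export from liver.

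Of these genes, Casp6, an effector caspase, was the one whose transcript rose in the knockout livers, 1.65-fold. Neither tested probe set of Xiap passed the test, nor did those of Bak1, Bcl2l1, Mcl1 and Casp8. In all, 1 of 12 tested probe sets passed an adjusted p of 0.05 as higher and 0 as lower (limma's moderated test with Benjamini-Hochberg adjustment; 1 of 12 at an unadjusted p under 0.05). That is 8.33%, a share that rests on 1 call, against 4.14% of all 10620 tested probe sets, 2.05% higher and 2.09% lower. An unadjusted limma p of 0.0497 or less was reached by 17.8% of all tested probe sets. By gene, 1 of the 6 tested passed an adjusted p of 0.05. Mcl1 alone gave 6 of the 12 probe sets. The median log2 difference of the 12 was -0.09, against 0.03 over all tested probe sets, and the median size of the difference was 0.12 against 0.16. Log2 differences are knockout minus wild type on log2(signal + 16), a scale that understates changes of low signals.

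**Figure D1:**
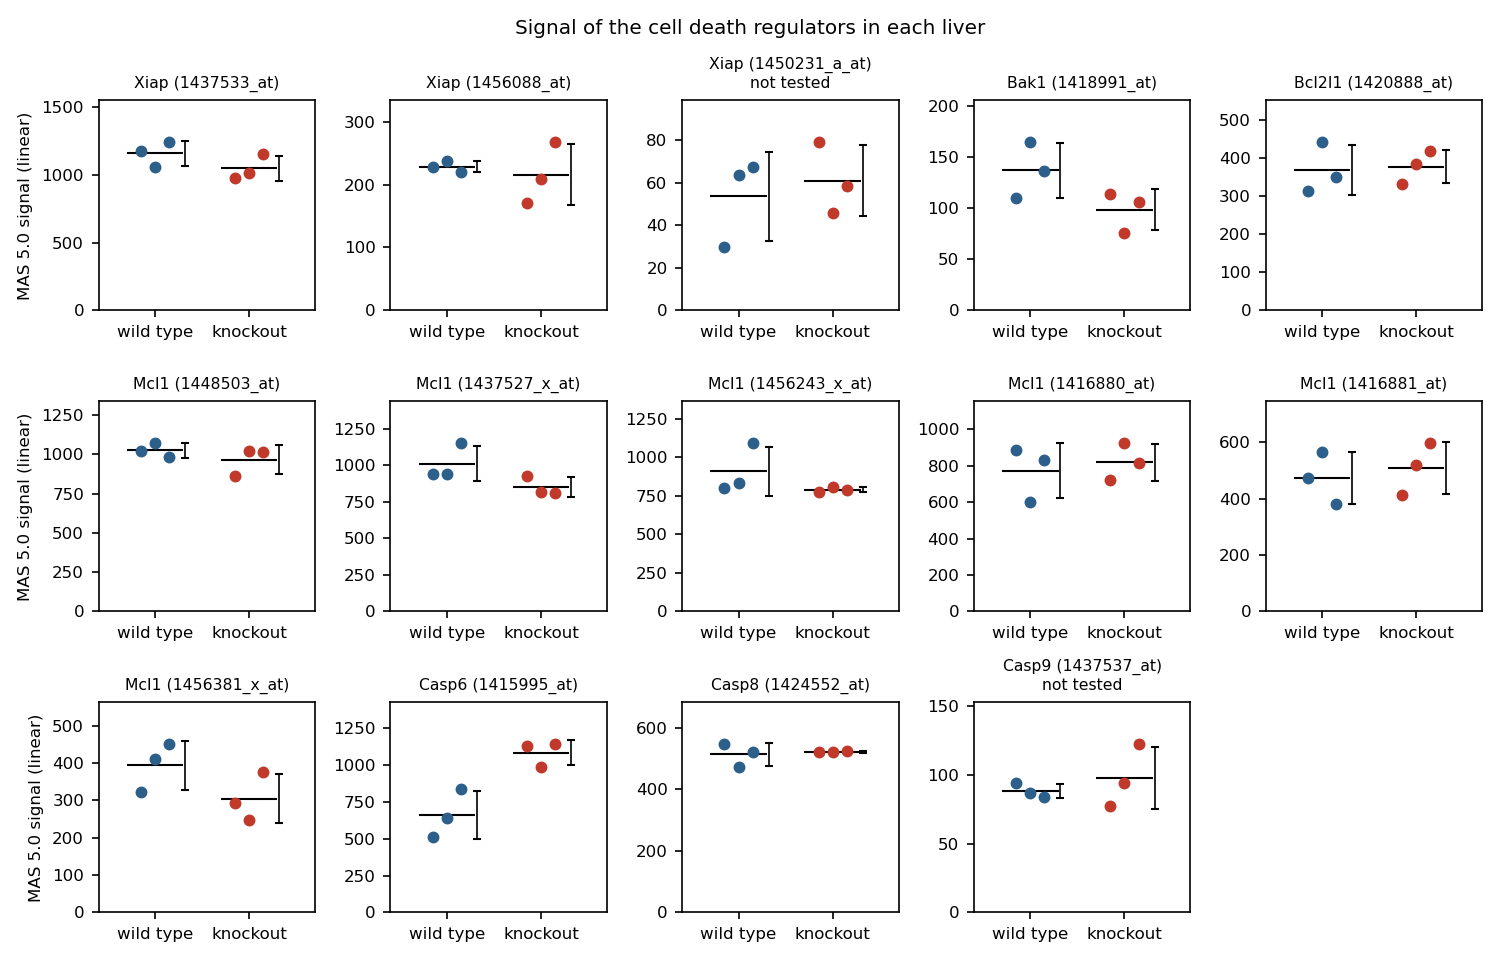
MAS 5.0 signal (vertical axis, linear, from 0) of each of the 14 probe sets in the 3 wild-type (blue) and 3 knockout (red) livers; lines are group means and the bars beside them are ± 1 SD (n = 3). The Casp6 points of the knockout, 985.9 to 1142.5, all lie above those of wild type, 510.1 to 836.1, and the 3 Casp8 points of the knockout nearly coincide.

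The array did not settle the genotype labels. The probe set of Atp7b read 240.5, 231.8 and 184.9 in KO903, KO904 and KO905 and 259, 299.7 and 241 in WT4, WT5 and WT6, a log2 difference of -0.27 ± 0.16 (SE; limma adjusted p = 0.407). Every knockout value lay below every wild-type value, and groups did not overlap, in either direction, in 23.6% of all tested probe sets. How the allele was altered is not known here, so what this probe set can show of the genotype is unknown. Array medians lay between 330.1 and 342.4, and the ratio of 3' to 5' signal, a sign of RNA quality, was 1.1 (WT5) to 1.47 (WT6) for actin. All 7 measured hepatocyte markers, albumin among them, were tested and 0 were called (limma; 1 at an unadjusted p under 0.05).

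Casp6, which encodes caspase-6, a protease that cleaves nuclear lamins once activated, was read by probe set 1415995_at. Its signal was 1130.7, 985.9 and 1142.5 in KO903, KO904 and KO905, and 510.1, 641 and 836.1 in WT4, WT5 and WT6. The groups did not overlap, and the wild-type livers were the more uneven, with a coefficient of variation of 24.8% against 8.03% in the knockout. The mean went from 662.4 ± 164.1 in wild type to 1086.4 ± 87.2 in the knockout (SD, n = 3 each). The log2 difference was 0.73 ± 0.17 (SE; 95% confidence interval 0.36 to 1.09; limma adjusted p = 0.0362). This call ended when any of KO903, KO904, KO905, WT4 or WT5 was left out (adjusted p 0.0597 to 0.121) and with a variance model that has no intensity trend (adjusted p = 0.0649), with log2 differences of 0.56 to 0.79 in these settings. Without WT6 the log2 difference was 0.90 and the call was kept (adjusted p = 0.0108). No exact permutation test of 3 against 3 samples can go below p = 0.1.

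Markers of macrophages leaned in the same direction as Casp6, with summed signals that overlapped between the groups. All 6 measured Kupffer cell and macrophage markers, of 8 listed, had log2 differences above 0, with a median of 0.42, though limma called 0 of them (3 at an unadjusted p under 0.05). Over all tested probe sets, 17.8% had an unadjusted limma p of 0.0497 or less. The summed signal of the 6 markers was 4761 to 6395 in the knockout and 3256 to 4805 in wild type, and no marker was at 0. By liver the sum was 6395, 4761 and 4765 in KO903, KO904 and KO905, and 4805, 3256 and 3538 in WT4, WT5 and WT6. Among the wild-type livers, WT4 had the lowest Casp6 signal and the highest sum. All 3 measured lymphocyte markers also had log2 differences above 0, with summed signals of 459 to 508 in the knockout and 346 to 464 in wild type. Of 6 endothelial markers, 5 had log2 differences above 0, and Lyve1 had -0.56 (limma unadjusted p = 0.026). Their summed signals were 2343 to 2876 in the knockout and 2009 to 2414 in wild type. Of 4 tested stellate cell markers, 2 had log2 differences above 0. Limma called 0 lymphocyte, 0 endothelial and 0 stellate cell markers (1, 3 and 0 at an unadjusted p under 0.05). The part of these cells in the Casp6 result was not tested.

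The sequence upstream of the Casp6 start site is shown because Casp6 carries the one call among these regulators, and that of Bnip3, a BCL2-related gene described further on that moved the other way, is shown for comparison. Vdac2, also described further on and also lower, had no entry among the promoters used. Each run is the 250 bases before the start site, 5′ to 3′ on the gene's strand, from RefSeq promoters of mouse build GRCm38.p6: chr3:129901165-129901414 on the plus strand for Casp6, and chr7:138909507-138909756 on the minus strand for Bnip3. Capitals mark matches to the motifs searched on both strands.
Casp6: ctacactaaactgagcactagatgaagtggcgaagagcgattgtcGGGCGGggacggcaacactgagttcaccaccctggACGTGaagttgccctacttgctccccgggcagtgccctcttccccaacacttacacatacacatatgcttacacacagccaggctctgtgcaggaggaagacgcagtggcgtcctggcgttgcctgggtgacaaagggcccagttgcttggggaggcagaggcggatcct
Bnip3: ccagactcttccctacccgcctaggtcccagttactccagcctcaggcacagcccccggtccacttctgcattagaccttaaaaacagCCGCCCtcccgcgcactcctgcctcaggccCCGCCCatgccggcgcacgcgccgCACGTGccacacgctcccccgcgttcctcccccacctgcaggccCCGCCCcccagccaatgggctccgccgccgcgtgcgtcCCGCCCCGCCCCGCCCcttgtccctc
The search covered the core of the metal response element, through which the metal-sensing factor MTF-1 acts (TGCACNC or TGCGCNC), the core of the antioxidant response element (TGACNNNGC), the core of the hypoxia response element (ACGTG), the GC box (GGGCGG) and the TATA box (TATAAA). Casp6 held 1 ACGTG and 1 GC box. Bnip3 held ACGTG on both strands at a single place, the palindrome CACGTG, and 6 GC boxes, 3 of them in 1 capital run. The bases G and C made up 72.4% of the Bnip3 window and 58.4% of the Casp6 window. Neither window held the letters of the metal or antioxidant elements or of the TATA box. Over all 32851 promoter windows of this length, 10.4% held TGCACNC, 12.5% TGCGCNC, 10.2% TGACNNNGC, 16.6% ACGTG, 32.7% the GC box and 12.4% TATAAA. A match is a description of letters, not of a factor at work.

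Of the initiator caspases, Casp8, which starts the death receptor route, was even across the livers. Its signal was 520.8, 519.7 and 523.4 in KO903, KO904 and KO905, and 546.1, 471.4 and 522.2 in WT4, WT5 and WT6. The knockout values fell inside the range of wild type. The log2 difference was 0.02 ± 0.12 (SE; limma adjusted p = 0.946), with a 95% confidence interval of -0.24 to 0.29; after centring each array on its median it was 0. Casp9, the caspase of the apoptosome, had low signals of 77.2, 93.9 and 122.1 in the knockout and 93.8, 86.9 and 83.5 in wild type. The groups overlapped, and no test was made below the signal minimum.

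Xiap encodes the X-linked inhibitor of apoptosis protein. Its brightest probe set, 1437533_at, read 977.4, 1015.9 and 1154.4 in KO903, KO904 and KO905, and 1179.9, 1059.8 and 1240.9 in WT4, WT5 and WT6. KO903 and KO904 were below every wild-type liver and KO905 was above WT5. The log2 difference was -0.14 ± 0.12 (SE; limma adjusted p = 0.588), and its 95% confidence interval, -0.41 to 0.12, does not reach a change of 0.5 in either direction. The second probe set, 1456088_at, read 171, 208.1 and 267.1 in the knockout and 227.6, 237.7 and 219.5 in wild type. Here the knockout values spread on both sides of a tight wild-type group (coefficients of variation 22.5% and 3.99%), with a log2 difference of -0.10 (adjusted p = 0.821) that became 0.04 without KO903. The third, 1450231_a_at, stayed between 29.6 and 78.9 on all arrays and was not tested.

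The genes whose log2 signals followed the brightest Xiap probe set most closely over the 6 arrays were Arf4 (Pearson r = 0.9892), Ppp1cb (r = 0.9843) and Mpzl2 (r = 0.9842). They were drawn from 7504 probe sets with a mean signal of at least 200, of which 17 reached an r of 0.95. All values share the same 6 arrays and their scaling, so these correlations are descriptions. The 3 probe sets on which these genes were picked did not pass the test between genotypes (limma adjusted p 0.352 to 0.437). Another probe set of Mpzl2, with a mean signal of 534.8, passed as lower (log2 -1.08, adjusted p = 0.048). A brighter probe set of the same gene, with a mean signal of 1149.6, did not pass (log2 -0.15, adjusted p = 0.66).

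The copper-handling partners of XIAP did not pass the test either. Ccs, the copper chaperone for superoxide dismutase, read 2652.1, 2113.7 and 2355.2 in KO903, KO904 and KO905 and 2215.4, 2346.1 and 2455.9 in WT4, WT5 and WT6 (log2 0.02 ± 0.11 SE; limma adjusted p = 0.963; -0.01 after centring each array on its median). The brighter probe set of Commd1, 1424122_s_at, read 852.1, 1014.2 and 356.8 in KO903, KO904 and KO905, against 483.9, 469.2 and 498.2 in wild type. The first 2 knockout livers thus stood above wild type and KO905 below it. The log2 difference was 0.47 ± 0.30 (SE; adjusted p = 0.449), and without KO905 it was 0.92 with an adjusted p of 0.0125. The other Commd1 probe set, 1424121_at, had its highest value, 191.5, in KO905 and a log2 difference of -0.13 (adjusted p = 0.749).

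The BCL2 family regulators were represented by the pore-former Bak1 and the survival genes Bcl2l1, which encodes BCL-XL, and Mcl1. Bak1 had a low signal, 113.7, 76.1 and 106.3 in KO903, KO904 and KO905 and 110.6, 164.8 and 136.9 in WT4, WT5 and WT6. Its groups overlapped through WT4 alone. The log2 difference of -0.42 ± 0.20 (SE; limma adjusted p = 0.311) did not pass, and its 95% confidence interval was -0.87 to 0.03. Bcl2l1 read 331.2, 383.6 and 417.5 in the knockout and 312.8, 441.6 and 350.5 in wild type, so that the lowest and the highest value were both wild type. Its log2 difference was 0.04 ± 0.16 (SE; adjusted p = 0.926; 95% confidence interval -0.31 to 0.39).

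Mcl1, whose short-lived product protects hepatocytes from apoptosis, was read by 6 probe sets, and 0 of 6 passed (limma adjusted p 0.321 to 0.818; 0 at an unadjusted p under 0.05). The brightest, 1448503_at, read 860.8, 1022.3 and 1015.1 in KO903, KO904 and KO905 and 1024.6, 1071 and 980.9 in WT4, WT5 and WT6, with a log2 difference of -0.09 ± 0.12 (SE; 95% confidence interval -0.35 to 0.17). The probe sets did not share a direction. The 3 whose names end in x_at, a suffix for probes that may also match other transcripts, had log2 differences of -0.19, -0.24 and -0.36, while 1416880_at and 1416881_at had 0.09 and 0.10. In 1 of the 6, 1437527_x_at, the knockout values (806.9 to 928.1) lay below all wild-type values (940.7 to 1149.4), at an adjusted p of 0.35. With Casp6, 2 of the 12 tested probe sets had groups that did not overlap, against 23.6% of all tested probe sets.

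**Figure D2:**
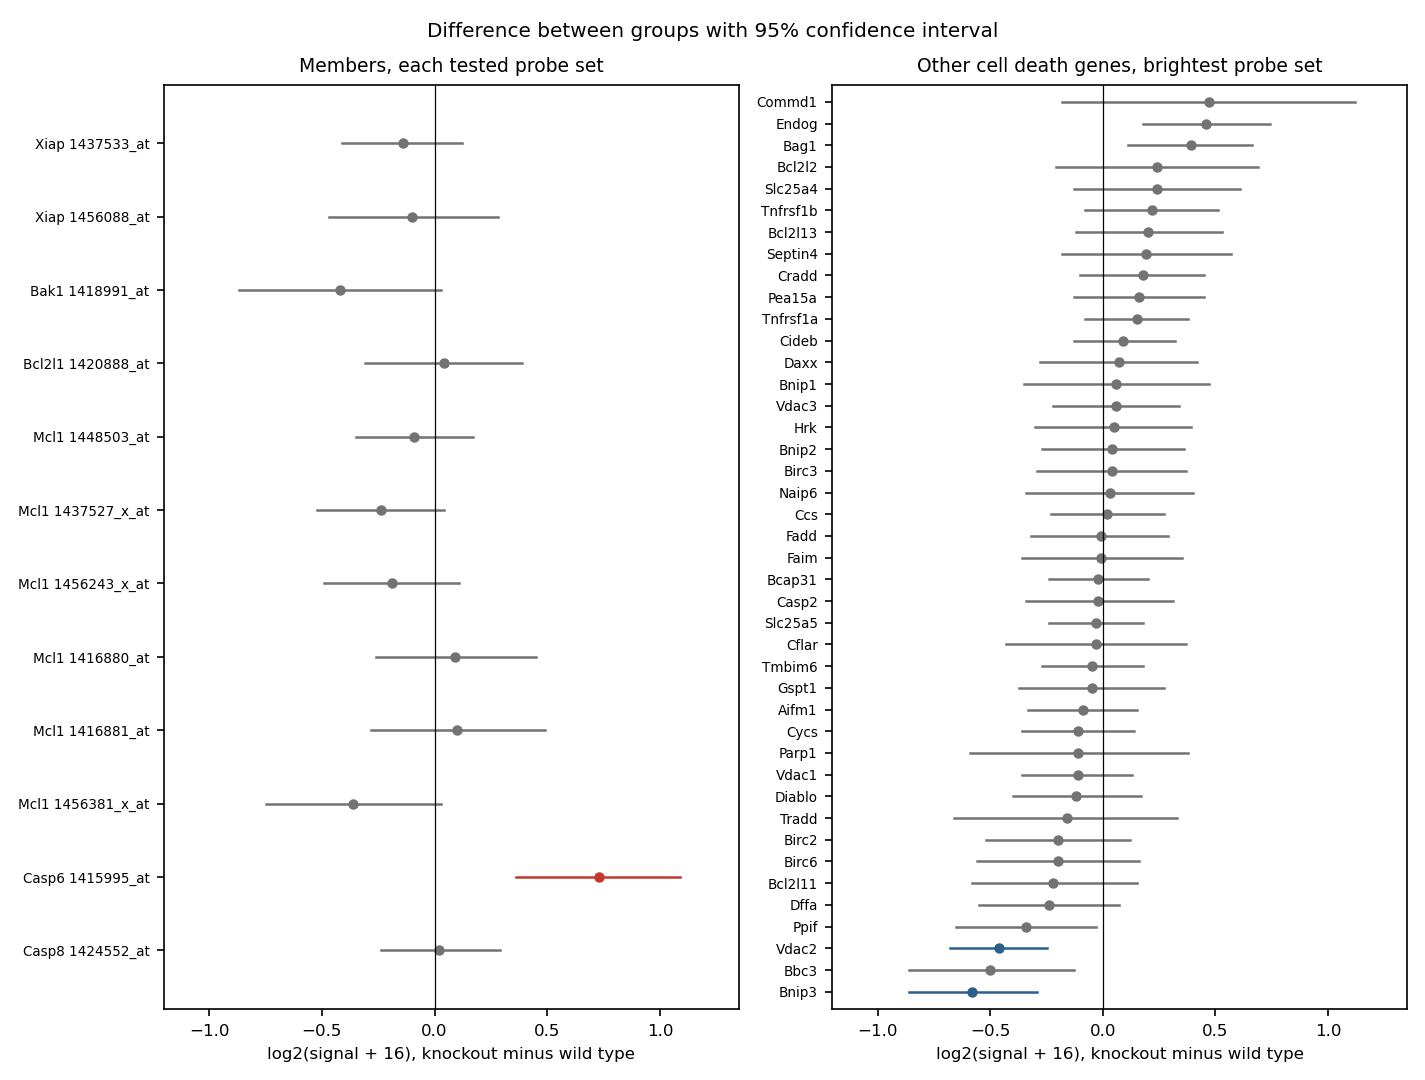
Knockout minus wild type difference in log2(signal + 16) (horizontal axis) with its 95% confidence interval, for the 12 tested probe sets of the cell death regulators (left) and the 42 other tested cell death genes (right); red marks a call as higher, blue as lower, grey no call. Casp6 at 0.73 is the sole call on the left, and Vdac2 at -0.46 and Bnip3 at -0.58 are those on the right.

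Around these regulators, 88 other genes of cell death were listed, also with earlier results of these data known. In all, 42 were tested, each on its brightest probe set. Of these, 0 rose and 2 fell, Bnip3 and Vdac2, or 4.76%, against 3.94% of all 6604 tested genes, 2.14% higher and 1.8% lower. Their median log2 difference was -0.01, against 0.03 over all genes, and 20 of 42 were above 0. The groups did not overlap in 9 of the 42, against 24.1% of all genes. The share of calls among these genes was therefore near that of the background.

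Among 11 tested further members and partners of the BCL2 family, 1 fell and 10 did not pass. Bnip3, a mitochondrial protein gene with roles in mitophagy and cell death, read 2891.8, 3517.2 and 3099.1 in KO903, KO904 and KO905 and 3945.4, 4957.7 and 5364.6 in WT4, WT5 and WT6. Every knockout value lay below every wild-type value, and the mean fell from 4755.9 ± 730.8 to 3169.4 ± 318.6 (SD, n = 3 each). The log2 difference was -0.58 ± 0.13 (SE; limma adjusted p = 0.0335), a 1.49-fold decrease. Bag1, a co-chaperone gene whose product binds BCL2, read 960.3, 1179.3 and 947.7 in the knockout and 782.1, 744.6 and 811.6 in wild type. Its groups did not overlap, but the log2 difference of 0.39 ± 0.12 (SE) missed the threshold (adjusted p = 0.118). Bbc3, the p53 target that encodes PUMA, was singled out after its values were seen: it read 167.7, 187.6 and 146.3 in the knockout and 260.7, 267.9 and 200.5 in wild type (log2 -0.50 ± 0.17 SE; adjusted p = 0.133).

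In the apoptosome and mitochondrial effector list, 12 genes were tested, 1 fell and 11 did not pass. Vdac2, a channel of the outer mitochondrial membrane that binds BAK, read 1650.1, 1666.5 and 1688.7 in KO903, KO904 and KO905 and 2326.8, 2345.7 and 2247 in WT4, WT5 and WT6. Both groups were tight, with coefficients of variation of 1.16% and 2.27%. The mean fell from 2306.5 ± 52.4 to 1668.4 ± 19.4 (SD, n = 3 each), a log2 difference of -0.46 ± 0.10 (SE; limma adjusted p = 0.0248). The moderated test draws the spread of each gene towards that of other genes of like signal, so its standard error is wider than these SDs alone would give. Endog encodes a mitochondrial nuclease. Its brighter probe set read 975.9, 951.1 and 1056.7 in the knockout and 687.5, 830.9 and 649.5 in wild type and missed the threshold (log2 0.46 ± 0.13 SE; adjusted p = 0.0731). The other, 1438317_a_at, read 737.4, 965.5 and 903.4 against 591.2, 616.8 and 563.7 and passed it (log2 0.54 ± 0.13 SE; adjusted p = 0.0468). On both probe sets every knockout liver was above every wild-type liver. The mean of both gave a log2 difference of 0.50 with an adjusted p of 0.0291.

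The calls of Bnip3 and Vdac2 were each lost when most single arrays were left out. Over all probe sets, 440 were called with every array and 175 to 469 with 1 left out. Bnip3 lost its call without KO903, KO904, KO905, WT5 or WT6 (adjusted p up to 0.123), and Vdac2 without KO903, KO904, KO905, WT4 or WT6 (up to 0.0899). Without KO905 the call count among the 42 genes was 1, Commd1 as higher, and without WT4 it was 1, Bnip3 as lower. In each of these alternatives the log2 difference kept its sign, from -0.70 to -0.48 for Bnip3 and -0.48 to -0.45 for Vdac2.

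The remaining lists held no call. Of 7 tested genes of inhibitor of apoptosis proteins and their antagonists, limma called 0 (0 at an unadjusted p under 0.05), and the smallest p belonged to Birc2 (log2 -0.20 ± 0.15 SE; adjusted p = 0.525) and Birc6 (log2 -0.20 ± 0.16 SE; adjusted p = 0.589), which encode a ubiquitin ligase of TNF receptor signalling and a giant relative of XIAP. Of 9 tested death receptor, adaptor and necroptosis genes limma also called 0 (0 at an unadjusted p under 0.05), with a median log2 difference of 0.07. In that list Cradd, an adaptor that joins caspase-2 to its activating complex, read 318.6, 321.8 and 323.6 in KO903, KO904 and KO905 and 278.7, 284.6 and 285.1 in WT4, WT5 and WT6. Its groups were narrow and apart, yet the difference was small (log2 0.18 ± 0.13 SE; adjusted p = 0.517). Tnfrsf1b, a receptor of tumour necrosis factor, had overlapping groups (log2 0.22 ± 0.13 SE; adjusted p = 0.445). Of 7 further caspase genes listed, only 1 had a probe set annotated to it alone. It was Casp2, with a log2 difference of -0.02 ± 0.15 (SE; adjusted p = 0.97).

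**Figure D3:**
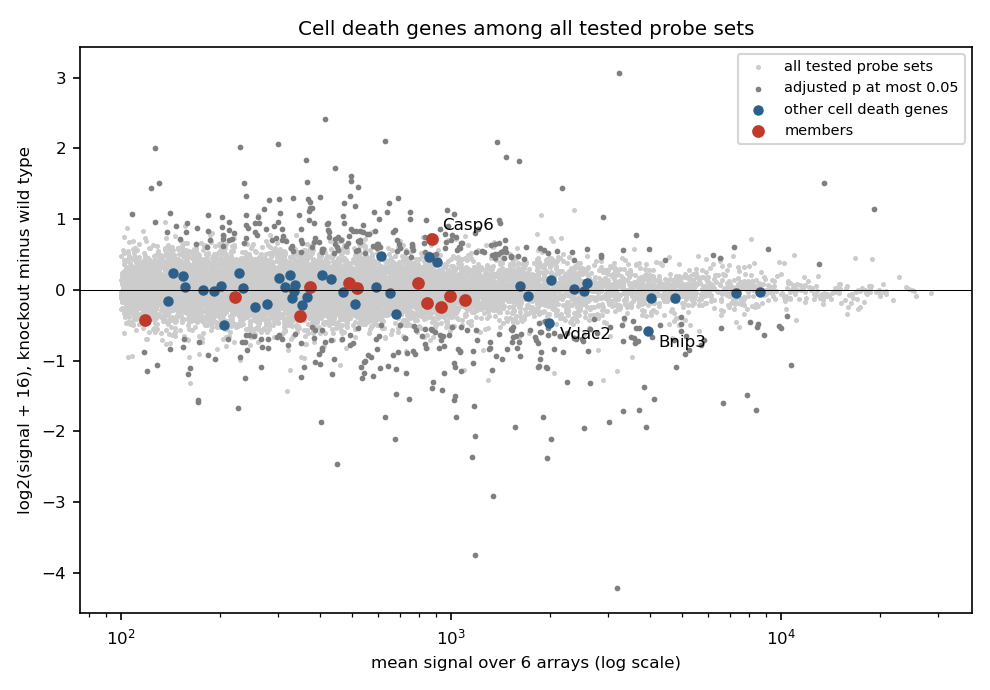
Log2 difference, knockout minus wild type (vertical axis), against mean signal over the 6 arrays (horizontal log axis) for all 10620 tested probe sets (light grey; dark grey where the adjusted p was at most 0.05), with the cell death regulators in red and the 42 other cell death genes in blue. The red and blue points lie within the cloud between -0.58 and 0.73, and many called genes outside these lists lie further from 0.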

How the data were processed

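Liver RNA of 3 knockout and 3 wild-type samples was analysed. Per the labels, the deposited intensity values are MAS 5.0 signals on a linear scale, each array scaled by the authors to a target average of 350. MAS 5.0 subtracts mismatch signal, so low signals are noisy. The table held 11811 probe sets, 33 of them controls, and nothing used here states their selection.

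Symbols came from the platform annotation: 10776 probe sets had 1 symbol, 418 several and 584 none, and those with several or none were not named. Identifiers were checked in a RefSeq table of GRCm38.p6, and 0 symbols changed.

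Groups came from the sample titles. Sample numbers are not shared between groups, and the labels do not state separate animals for all samples, so the p-values reflect differences among these arrays, which may be technical. No pair of arrays was a duplicate (at most 0.0849% identical values).

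Probe sets with a mean signal of at least 100 were tested on log2(signal + 16) with limma 3.58.1 in R 4.3.3 (lmFit, eBayes with an intensity trend, two-sided), adjusted over all 10620. The model was tested on simulated data. Where a gene of the wider lists had several tested probe sets, the brightest stood for it. Named are all regulators; from each wider list the called genes and the 2 with the smallest p; Atp7b; and the 3 genes most like Xiap. Bbc3 was added after its values were seen. The regulators and lists were chosen with earlier results of these data known. Arrays have no sequencing depth; their number limits the precision. Alternatives were other normalizations, pseudocounts, signal minimums, variance models, array weights, a threshold of 0.10, each sample left out, and averaging a gene's probe sets.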

Additional observations from a re-analysis of the deposited data

How the results depend on the processing

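No paired analysis was possible because the groups share no sample numbers. Over all probe sets 440 were called, 786 at a threshold of 0.10, and 175 to 469 with 1 sample left out. The count of called regulator probe sets, 1, was 0 to 1 with 1 sample left out and 0 without the intensity trend, where Casp6 had a log2 difference of 0.73 (adjusted p = 0.0649); with 1 sample left out Casp6 lay between 0.56 and 0.90. The count of other called cell death genes, 2, was 0 to 2 with 1 sample left out and 0 without the trend. Signs turned with 1 sample left out for probe sets near 0: Xiap 1456088_at (-0.25 to 0.04), Bcl2l1 (-0.06 to 0.17), Mcl1 1416880_at (-0.07 to 0.20) and 1416881_at (-0.04 to 0.24), Casp8 (-0.03 to 0.07), Casp2 (-0.07 to 0.05) and Ccs (-0.07 to 0.10). Centring each array on its median gave 0 for Casp8 (below 0 before rounding) and -0.01 for Ccs. Bak1 kept its sign and stayed uncalled in all 15 alternatives that gave it a value, and the brightest Xiap probe set in all 16, with log2 differences of -0.55 to -0.27 (-0.27 without KO904) and -0.21 to -0.09 when 1 sample was left out. Endog's brighter probe set passed with array weights (adjusted p = 0.0422), without WT5 (0.0298) and as the mean of its probe sets (0.0291). Its other probe set lost its call in 8 of 15 alternatives.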
